A study of Mus musculus with 4 samples.

Results

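Glutathione S-transferases (Gst), UDP-glucuronosyltransferases (Ugt) and cytosolic sulfotransferases (Sult) were described in mouse small intestine and colon. Members were taken by symbol in the mm9 annotation (GENCODE M1 or refGene): Gst of the classes alpha, kappa, mu, omega, pi, theta and zeta, Ugt1 and Ugt2 genes, and Sult genes. The rule gave 58 genes, of which 52 had exon blocks of their own in the deposited exon table, set beside 19772 genes with such blocks in all. Of the 58 genes, 22 were Gst, 9 were Ugt1, 9 were Ugt2 and 18 were Sult.

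These enzymes carry out the conjugation step of detoxification. Gst enzymes join glutathione to reactive electrophiles, Ugt enzymes of the endoplasmic reticulum transfer glucuronic acid from UDP-glucuronic acid to phenols, bilirubin, steroids and drugs, and Sult enzymes transfer sulfate from the donor PAPS. The intestinal epithelium meets food compounds, drugs and bacterial metabolites first, and it conjugates many of them before they reach the portal blood.

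The study sequenced RNA of C57BL/6 mice aged 9 to 10 weeks on the SOLiD platform, and no mouse was treated or genetically altered. Small intestine (jejunum) and colon (distal colon) of specific-pathogen-free mice were each frozen as whole tissue and sequenced by 2 protocols. In the cDNA fragmented protocol, polyadenylated RNA was copied into full-length cDNA, amplified and then fragmented, and in the RNA fragmented protocol, RNA labelled as depleted of ribosomal RNA was fragmented first and kept its strand. There was 1 library per tissue and protocol, and the labels do not say how many mice went into each library. The study states that both tissues came from the same individuals, but no label ties a library to a mouse.

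Because no tissue had a replicate library within a protocol, no test was made and all intervals given here are 95% intervals for counting error only. PCR copies could not be told apart from separate molecules, which these intervals do not cover. Levels are given as RPKM, the number of uniquely placed reads per 1000 bases of exon block and per 1000000 uniquely placed reads, and the ratio of both tissues was calculated within each protocol. In whole tissue, fewer cells of a type and less RNA per cell cannot be told apart.

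Uniquely placed reads numbered 22484041 and 24798934 by the cDNA fragmented protocol, for small intestine and colon, but only 2035386 and 3478387 by the RNA fragmented protocol, so ratios of the latter were less precise. Markers, chosen with earlier results of these data known, were set beside the tissue labels and are no independent check of them. All 8 small intestinal enterocyte markers were higher in small intestine and all 7 colonocyte markers were higher in colon by both protocols, with summed levels of 54351, 4498, 10814 and 569 RPKM and of 394, 59790.4, 168 and 7736 RPKM (small intestine and colon cDNA fragmented, then small intestine and colon RNA fragmented). Pancreatic acinar markers stood apart: they summed to 1081 RPKM in the colon cDNA fragmented library and 3396 RPKM in the small intestine RNA fragmented library, against 19.1 and 299.7 RPKM in the other tissue of the same protocol, so their direction was opposite between the protocols. The 5 markers of all epithelial cells went both ways: Krt20 and Vil1 passed in small intestine by both protocols, while Krt8 was 1.55-fold and 2.20-fold higher in colon. They summed to 9133 and 3755 RPKM by cDNA and to 3297 and 3467 RPKM by RNA, with Krt20 at 7525 RPKM in small intestine by cDNA and Krt8 at 2485 RPKM in colon by RNA. Paneth cell markers summed to 7624 and 485 RPKM by cDNA and to 1969 and 340.2 RPKM by RNA, goblet cell markers to 4931 and 17754 RPKM and to 1911 and 3412 RPKM, and immune markers to 3382 and 358 RPKM and to 371 and 377 RPKM. Among the goblet markers only Agr2 passed, and it made up most of their cDNA sum (3038 and 15256 RPKM). The colon ratio was below 1 for Clca1 by cDNA (0.438) and for Fcgbp by RNA (0.614), and Muc2 was not found. All 6 smooth muscle markers were higher in colon by both protocols (summed 304 and 1269 RPKM by cDNA, 238 and 2412 RPKM by RNA). By the 3-fold rule given below, 5 of them passed by each protocol, all but Des by cDNA (2.91-fold) and all but Myh11 by RNA (2.30-fold). Adipocyte markers passed in colon for 3 and 2 of 5 genes (73.3 and 356 RPKM, then 30.2 and 181 RPKM). The part of these cells in the results below was not tested.

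Most conjugation genes were found in both tissues. Of the 52 members with blocks of their own, 35 had reads in all 4 libraries, and 31, 33, 31 and 32 exceeded 1 RPKM in the small intestine cDNA, colon cDNA, small intestine RNA and colon RNA libraries. No read was placed on Sult2a1, Sult2a2, Sult2a4, Sult2a6 or Sult3a1, and 15 further members had fewer than 50 reads over the 4 libraries. Gstm2-ps1, Sult2a3, Sult2a5 and Sult2a7 had no exon block in the deposited table, and Ugt1a6b and Ugt1a8 had only blocks shared with the other Ugt1 genes. Summed over all members, the level was 2787 RPKM in small intestine and 3299 RPKM in colon by cDNA, and 1709 and 2253 RPKM by RNA.

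A gene was counted as higher in a tissue where its RPKM there was at least 3 times its RPKM in the other tissue plus 1, the rule of the study. By the cDNA fragmented protocol 4 of 46 members passed in small intestine, which was 8.70% against 2.73% of all 15904 genes, and 6 passed in colon, which was 13% against 3.19%. By the RNA fragmented protocol 5 of 37 members passed in small intestine (13.5% against 3.73% of all 14517 genes) and 8 in colon (21.6% against 6.76%). A gene below 3 RPKM in both tissues cannot pass, and all genes were not matched to the members by level. Both protocols placed Gsta1, Ugt2a3 and Sult2b1 higher in small intestine, and Gstm1, Gstm2, Ugt1a6a, Sult1a1 and Sult1c2 higher in colon. Of the 8 members that passed by both protocols, 0 passed in opposite directions, beside 15 of 642 among all genes (2.34%). Among all genes, 300 passed in small intestine by both protocols, of 434 by cDNA and 541 by RNA, and 327 in colon, of 508 and 982. Sult1b1 (small intestine) and Gsta3 (colon) passed by cDNA only, while Gstm3 and Gstm6 (small intestine) and Gstm5, Gstt3 and Sult4a1 (colon) passed by RNA only, and the difference between the protocols was not tested. When start points (distinct read starts) were counted in place of reads, 1 of 46 members passed in small intestine and 4 in colon by cDNA, beside 2.44% and 3.46% of all genes, and 5 and 5 of 37 by RNA, beside 3.52% and 6.70%. The member share in small intestine by cDNA was then no higher than that of all genes. A block holds a limited number of start points, which draws ratios of well-read genes toward 1. The 181-base block of Sult1b1 had 303 and 297 start points for 7203 and 3144 reads by cDNA, in small intestine and colon. Start-point counts thus cannot tell a smaller tissue difference from start points that were filled. With a penalty of 0.1 in place of 1, 8 of 37 members passed in colon by RNA, beside 16.6% of all genes.

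The counting intervals of the ratio were clear of 1 by both protocols for 25 members. Of these, 13 were higher in colon and 9 in small intestine by both, and 3 members (12%) lay on opposite sides of 1. Among all 19772 genes, 6489 had both intervals clear of 1, of which 3727 were higher in colon and 1459 in small intestine by both, and 20.1% lay on opposite sides. On the log2 scale, with 0.1 RPKM added to each level, the median of colon over small intestine was 0.53 over the members by cDNA and 0.36 by RNA, beside 0.35 and 0.43 over all genes tested. The median of the members lay near that of all genes, while the medians of the families differed from each other. Medians were negative for alpha Gst (-0.93 and -1.24) and Ugt2 (-0.70 and -0.85). They were positive for mu Gst (0.72 and 1.32), the other Gst (0.58 and 1.06), Ugt1 (0.90 and 0.25), Sult1 (1.0 and 2.27) and the other Sult (0.80 and 0.62). Rarely read members count as much as others in these medians. That of Ugt1 by cDNA was the value of Ugt1a10 (0 and 2 reads in small intestine and colon). That of the other Sult by RNA was the value of Sult6b1 (1 and 3 reads). In summed level, the other Sult were instead higher in small intestine, by 3.71-fold and 3.69-fold.

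**Figure D1:**
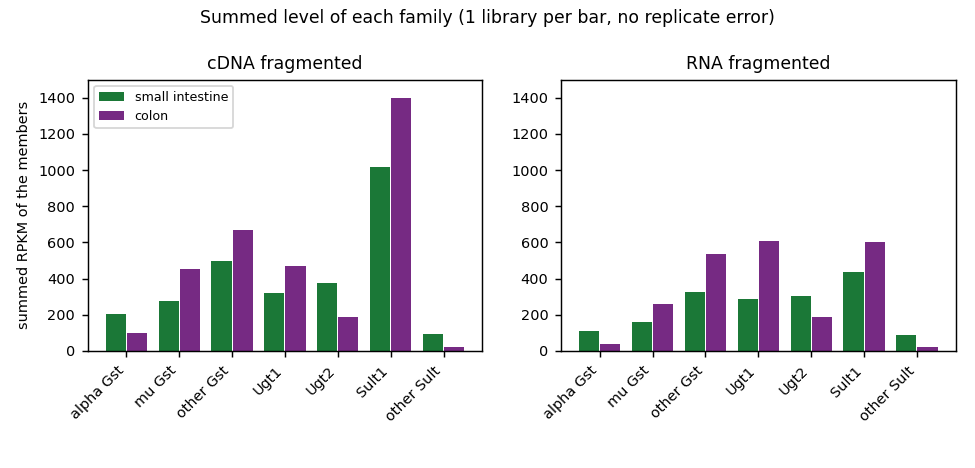
Summed RPKM of the members of each family (vertical axis, starting at 0) in small intestine and colon, by cDNA fragmented (left) and RNA fragmented (right) protocol; each bar is 1 library. Alpha Gst, Ugt2 and the other Sult were higher in small intestine and the remaining families higher in colon by both protocols.

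Alpha Gst were the most small intestinal of the Gst classes. Their summed level was 203 RPKM in small intestine and 99.7 RPKM in colon by cDNA, a 2.03-fold difference (1.93 to 2.14), and 109 and 36.3 RPKM by RNA, a 3.0-fold difference (2.39 to 3.75). Gsta1, a main glutathione transferase of the alpha class (chr9:78078463-78090491, plus strand, mm9), stood at 118 RPKM in small intestine and 11.2 RPKM in colon by cDNA, and at 39.4 and 5.01 RPKM by RNA. It was higher in small intestine by 10.5-fold (9.17 to 12) and 7.86-fold (4.45 to 14.8). By start points, the ratio of colon to small intestine was 0.365 by cDNA, within 3-fold. Gsta1 made up 58.2% of the alpha level in small intestine and 11.3% in colon by cDNA, and 36.2% and 13.8% by RNA, where Gsta4 held 63.2% and 80.2%.

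Gsta1 has a close copy, Gsta2, which shares 98.5% of 546 coding bases compared. As reads matching several places were not kept, their levels are uncertain: 52.3% of the 35-base windows of Gsta1 and 34.2% of those of Gsta2 were unique at exact match, and 25.7% and 10.7% within 1 mismatch. Within 1 mismatch, Gsta2 shared 498 of its 617 windows with a further copy, Gm10639. The stretch where Gsta1 and Gsta2 differ most is shown, with the differing bases in capitals.

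Gsta1, coding exon 5, chr9:78089382-78089411, plus strand: agggtggacAtccacctActggaaGttctC

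Gsta2, coding exon 5, chr9:78179948-78179977, minus strand: agggtggacGtccacctGctggaaCttctT

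Over the middle of the Gsta1 window lay 242 reads in small intestine and 27 in colon by cDNA, and 3 and 0 by RNA. The Gsta2 window had no uniquely placed read in any of the 4 libraries, and whether Gm10639 also holds this window, which would keep reads from it, was not tested. Gsta2 as a whole had 10 and 2 reads by cDNA (0.520 and 0.0943 RPKM) and none by RNA.

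Gsta4, which conjugates the lipid peroxidation product 4-hydroxynonenal, had a smaller tissue ratio than Gsta1. It was at 79.3 RPKM in small intestine and 69.7 RPKM in colon by cDNA and at 68.7 and 29.1 RPKM by RNA, so it was higher in small intestine by 1.14-fold (1.06 to 1.22) and 2.36-fold (1.80 to 3.10). Gsta3 was the alpha gene higher in colon, with 4.88 and 18.7 RPKM by cDNA, a 3.83-fold difference (3.22 to 4.58). By RNA it had 2 reads in small intestine and 11 in colon (0.678 and 2.18 RPKM), and the interval of that ratio, 0.702 to 29.9, held 1.

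Mu Gst genes lie side by side on chromosome 3 and split between the tissues. Gstm1, a major mu class enzyme, was at 42.3 RPKM in small intestine and 135 RPKM in colon by cDNA and at 32.7 and 149.6 RPKM by RNA. The colon exceeded the small intestine by 3.18-fold (2.98 to 3.39) and 4.58-fold (3.65 to 5.80), and with median-of-ratios scaling the cDNA ratio was 2.63, under 3-fold. Gstm2 was at 32.2 and 147 RPKM by cDNA and at 13.1 and 44.5 RPKM by RNA, with ratios of 4.58 (4.23 to 4.96) and 3.39 (2.26 to 5.25). With median-of-ratios scaling, Gstm2 no longer met the 3-fold rule by RNA. Gstm5 followed with 21.3 and 52.3 RPKM by cDNA and 4.04 and 23.4 RPKM by RNA, and ratios of 2.45 (2.24 to 2.69) and 5.80 (3.12 to 12). All 8 exon blocks of Gstm1 and all 8 of Gstm2 were higher in colon by cDNA, by 1.74-fold to 5.60-fold and 3.89-fold to 8.16-fold. By start points, neither gene passed 3-fold, with ratios of 1.53 and 2.16 for Gstm1 and of 2.02 and 2.01 for Gstm2 by cDNA and RNA.

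Gstm3 ran the other way. It was at 132 RPKM in small intestine and 60.8 RPKM in colon by cDNA and at 80.4 and 16.2 RPKM by RNA, which made it 2.17-fold (2.05 to 2.29) and 4.95-fold (3.73 to 6.63) higher in small intestine. Gstm6, of the same cluster, was 1.28-fold (1.13 to 1.44) and 3.96-fold (2.26 to 7.18) higher there. Gstm3 held 47.3% of the mu level in small intestine and 13.5% in colon by cDNA, and Gstm1 and Gstm2 held 29.8% and 32.7% of it in colon. By RNA Gstm3 held 49.5% and 6.30%, and in colon Gstm1 held 58% and Gstm2 17.2%. Gstm4 was higher in colon by both protocols (1.66-fold and 2.54-fold, intervals clear of 1), and both intervals of Gstm7 held 1.

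Gstm1 and Gstm3 share 89.4% of 654 coding bases, and 86.9% and 82.9% of their 35-base windows were unique (69.7% and 68.7% within 1 mismatch). The last coding exon carries the stretch with the most differences and is shown because the genes moved in opposite directions there too.

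Gstm1, chr3:107815613-107815642, minus strand: AtAtttTcAaagatGgcccaCtggAgTaAC

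Gstm3, chr3:107767131-107767160, minus strand: GtGtttAcTaagatAgcccaGtggGgCaCT

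Reads over the middle of the Gstm1 window numbered 113 in small intestine and 362 in colon by cDNA, and 3 and 17 by RNA. Over the Gstm3 window they numbered 247 and 162 by cDNA, and 8 and 0 by RNA. The capitals mark the bases that differ. Several marker sets had higher sums in colon by both protocols, as Gstm1, Gstm2 and Gstm5 had higher levels: colonocyte, goblet, smooth muscle, adipocyte and hepatocyte markers. The part of these cells was not tested.

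The summed level of the remaining Gst classes was 1.34-fold (1.31 to 1.37) higher in colon by cDNA and 1.66-fold (1.52 to 1.81) by RNA. Gsto1, an omega class thioltransferase, had the highest level of this family by RNA. It was at 119 RPKM in small intestine and 94.0 RPKM in colon by cDNA, and at 204 and 311 RPKM by RNA. Its ratio of colon to small intestine was 0.793 (0.753 to 0.835) by cDNA and 1.52 (1.37 to 1.69) by RNA, on opposite sides of 1. Counted by start points, the RNA ratio was 0.945 with an interval (0.776 to 1.15) that held 1.

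Gstk1, the kappa class enzyme of mitochondria and peroxisomes, was at 35.6 and 95.9 RPKM by cDNA and at 25.9 and 60.3 RPKM by RNA, and its colon ratio was 2.69 (2.48 to 2.93) and 2.33 (1.69 to 3.25). Among the theta class genes, Gstt1 differed least, with 103 and 94.7 RPKM by cDNA and 30.3 and 23.0 RPKM by RNA. Gstt3 was at 77.2 and 115 RPKM by cDNA and at 17.7 and 59.5 RPKM by RNA, with ratios of 1.49 (1.40 to 1.59) and 3.36 (2.30 to 5.06), read from 1 block because its others are shared with a readthrough transcript. Gstt2 exceeded 2-fold in colon by both protocols (2.20 and 2.44). Gstz1, which isomerises maleylacetoacetate in tyrosine breakdown, had ratios of 1.38 and 1.12, the latter with an interval from 0.819 to 1.55.

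Gstp1 and Gstp2, the pi class pair, are 98.1% identical over 630 coding bases, and only 19% and 20.2% of their windows were unique (7.11% and 8.37% within 1 mismatch), so their levels are uncertain. A window with 5 differing bases in capitals shows that both genes were read.

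Gstp1, chr19:4037587-4037616, minus strand: AccAtacaccattgtctacttcccaGTtcG

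Gstp2, chr19:4041905-4041934, minus strand: GccGtacaccattgtctacttcccaAGtcC

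By cDNA the Gstp1 window had 132 reads in small intestine and 223 in colon, and the Gstp2 window had 28 and 47. By RNA neither window had a read. Gsto2 had 3 and 45 reads by cDNA and none by RNA, and Gstt4 had 1 read in all.

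**Figure D2:**
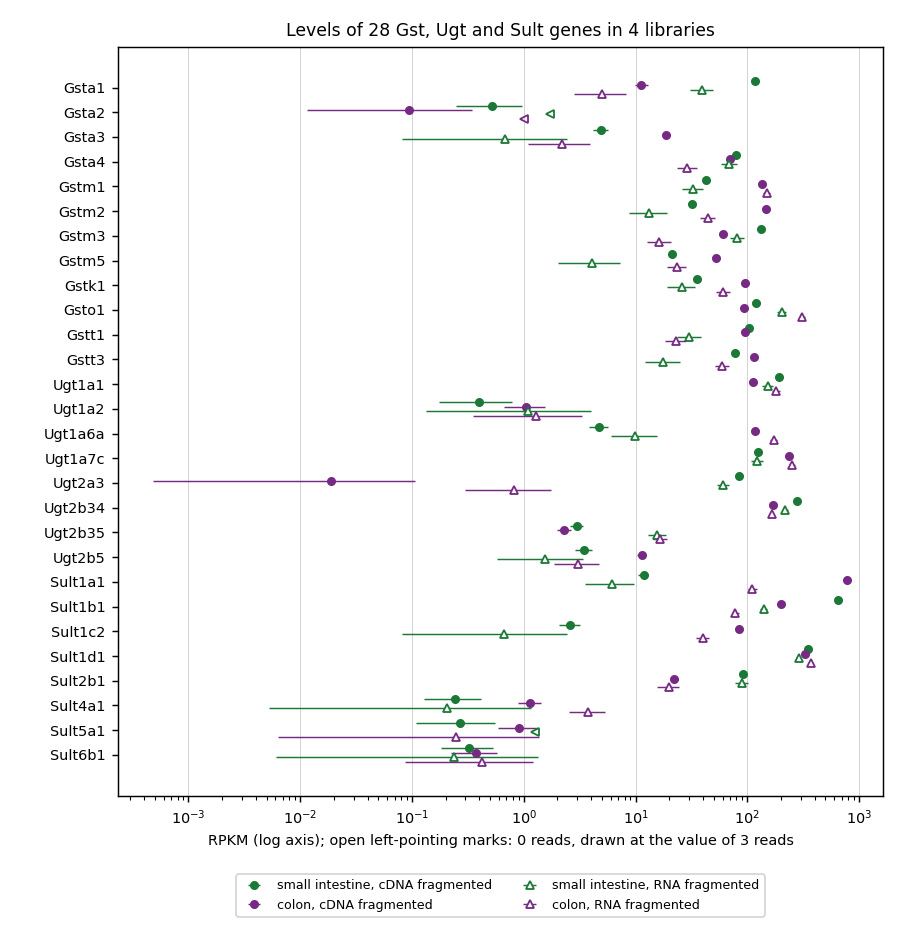
Level of 28 members in RPKM (horizontal log axis) in each of the 4 libraries, with exact Poisson 95% intervals for counting error; green is small intestine, purple is colon, filled circles are cDNA fragmented and open triangles RNA fragmented. Sult1a1, Sult1c2 and Ugt1a6a sit far to the right in colon, and Ugt2a3 and Gsta1 in small intestine.

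Ugt1 genes share exons 2 to 5 and differ in their first exon, each with a promoter of its own, so the first exon was read for each gene and the shared exons for all of them together. The shared exons were at 256 RPKM in small intestine and 459 RPKM in colon by cDNA and at 151 and 371 RPKM by RNA. Colon thus exceeded small intestine by 1.80-fold (1.76 to 1.83) and 2.47-fold (2.27 to 2.68). The summed first exons gave 321 and 468 RPKM by cDNA and 287 and 606 RPKM by RNA, which is 1.26, 1.02, 1.91 and 1.63 times the level of the shared exons in small intestine cDNA, colon cDNA, small intestine RNA and colon RNA. The end of each first exon (capitals) joined to the start of shared exon 2 (lower case, chr1:90111619-90111633, plus strand) is shown for the genes that carried nearly all first-exon reads and for Ugt1a9.

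Ugt1a1, chr1:90109432-90109446: AAGCCCCTATCCCAGgaatttgaagcctat

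Ugt1a6a, chr1:90035892-90035906: GGAAAGCTGACTCAGgaatttgaagcctat

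Ugt1a7c, chr1:89992539-89992553: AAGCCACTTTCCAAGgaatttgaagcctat

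Ugt1a9, chr1:89968239-89968253: AAGTCACTTTCCAAGgaatttgaagcctat

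The last 15 bases of the Ugt1a10 first exon are those of Ugt1a7c, and Ugt1a2 and Ugt1a5 also share theirs with each other. These sequences show the design of the gene and were not used to count.

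Ugt1a6a, whose enzyme conjugates small planar phenols, differed most. Its reads were pooled over 2 blocks, the coding first exon and a 127-base block upstream of it. Together they were at 4.69 RPKM in small intestine and 118 RPKM in colon by cDNA and at 9.97 and 172 RPKM by RNA. The 127-base block gave 122 of the 590 reads in colon by RNA, 58 of them at 1 start point. The colon was higher by 25.2-fold (20.7 to 30.9) and 17.3-fold (11.1 to 28.5), and both of its blocks were higher in colon by both protocols (24.5-fold and 45.6-fold by cDNA, 15.2-fold and 35.7-fold by RNA). By start points the ratios of both protocols were smaller, yet above 3-fold. Ugt1a6a held 1.53% (1.26 to 1.86) of all 6776 first-exon reads in small intestine and 25.8% (25 to 26.6) of 11188 in colon by cDNA, and 3.63% (2.23 to 5.55) of 551 and 29.1% (27.1 to 31.2) of 2026 by RNA, with Clopper-Pearson intervals.

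Ugt1a1, the enzyme that conjugates bilirubin, had the larger share in small intestine. It was at 190.2 RPKM in small intestine and 113 RPKM in colon by cDNA, and at 152 and 181 RPKM by RNA. The ratio of colon to small intestine was 0.592 (0.563 to 0.622) by cDNA and 1.19 (1.03 to 1.38) by RNA, on opposite sides of 1, and the RNA ratio was 0.971 by start points (0.769 to 1.23, which held 1). As a share of first-exon reads it was lower in colon by both protocols, at 57.6% (56.4 to 58.8) and 22.8% (22.0 to 23.6) by cDNA and at 51.2% (46.9 to 55.4) and 28.3% (26.4 to 30.3) by RNA.

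Ugt1a7c was high in both tissues and somewhat higher in colon, with 125 and 236 RPKM by cDNA and 122 and 252 RPKM by RNA. Its ratios were 1.89 (1.81 to 1.98) and 2.07 (1.80 to 2.40). It held 40.4% and 51.1% of first-exon reads by cDNA and 43.9% and 42.3% by RNA, and the last intervals (39.7 to 48.2 and 40.2 to 44.5) overlapped. The other first exons were rarely read: Ugt1a2 was at 0.400, 1.04, 1.10 and 1.29 RPKM, Ugt1a9 had 18, 1, 4 and 0 reads, Ugt1a5 had 3, 6, 1 and 0 reads and Ugt1a10 had 0, 2, 0 and 0 reads in small intestine cDNA, colon cDNA, small intestine RNA and colon RNA. By their colors, 2 of the 3 and 2 of the 6 Ugt1a5 reads by cDNA were closer to the first exon of Ugt1a2. The 2 Ugt1a10 reads were closer to that of Ugt1a8, which the deposited table lacks.

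**Figure D3:**
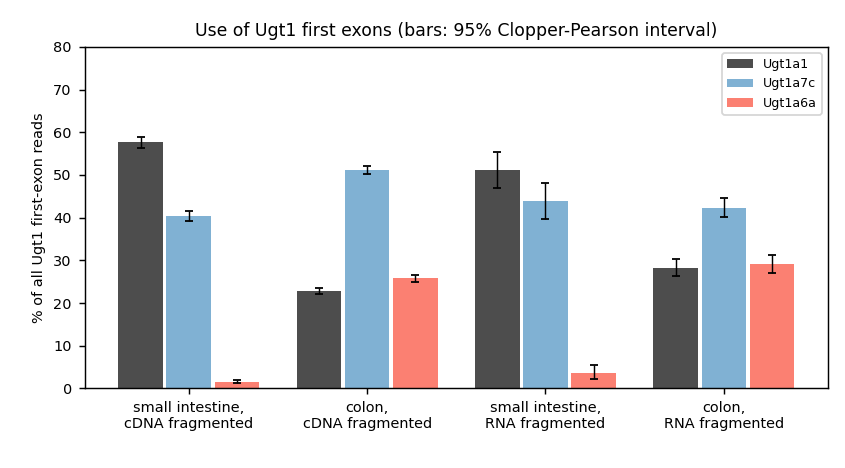
Share of all Ugt1 first-exon reads (vertical axis, percent, starting at 0) held by Ugt1a1, Ugt1a7c and Ugt1a6a in each library, with 95% Clopper-Pearson intervals. Ugt1a6a held 1.53% in small intestine and 25.8% in colon by cDNA (3.63% and 29.1% by RNA), and Ugt1a1 held 57.6% and 22.8% (51.2% and 28.3%).

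Ugt1a6b, a copy of Ugt1a6a with 97% identity over 858 bases of the coding first exon, had no first exon in the deposited table, so its reads could have been placed on Ugt1a6a. A window of both genes with 7 differing bases in capitals is shown for that reason.

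Ugt1a6a, chr1:90035379-90035408, plus strand: gagtacaggaacaAcatgAttGTCGtggaC

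Ugt1a6b, chr1:90003847-90003876, plus strand: gagtacaggaacaGcatgCttACATtggaG

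Over the Ugt1a6a window lay 5 reads in small intestine and 190 in colon by cDNA, and 1 and 39 by RNA. The colors of every read on the coding first exon were compared with both genes. Closer to Ugt1a6b were 0 of 101 and 0 of 2734 reads by cDNA, and 1 of 18 and 1 of 468 by RNA, in small intestine and colon, while 47, 1400, 9 and 238 were equally close to both. Reads of Ugt1a6b with more than 3 mismatched colors could not have been placed.

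Ugt2 genes lie together on chromosome 5 and were the glucuronosyltransferases higher in small intestine, by 2.0-fold (1.96 to 2.05) in summed level by cDNA and 1.60-fold (1.5 to 1.70) by RNA. Ugt2a3 (chr5:87753997-87766220, minus strand), whose human counterpart acts on bile acids, was barely read in colon. It was at 83.8 RPKM in small intestine (3991 reads) and 0.0190 RPKM in colon (1 read) by cDNA, and at 60.6 RPKM (261 reads) and 0.815 RPKM (6 reads) by RNA. Small intestine exceeded colon 4402-fold by cDNA, with an interval from 789.6 to 173909 set by the 1 read, and 74.3-fold (33.7 to 204) by RNA. With reads of at most 1 mismatch, the RNA value lay above that interval. All 6 exon blocks were higher in small intestine by both protocols.

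Ugt2b34 had the highest level of the family in every library, with 276 RPKM in small intestine and 169.8 RPKM in colon by cDNA and 219 and 166 RPKM by RNA. It was higher in small intestine by 1.63-fold (1.59 to 1.66) and 1.32-fold (1.23 to 1.41). Ugt2b34 made up 90.7% of the Ugt2 level in colon and 73.6% in small intestine by cDNA, and 88.1% and 72.7% by RNA. Ugt2a3 made up 22.3% and 20.1% in small intestine.

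Ugt2b5 was the Ugt2 gene with the clearest colon excess, at 3.43 and 11.4 RPKM by cDNA (ratio 3.31, 2.75 to 4.0) and at 1.56 and 3.04 RPKM by RNA (ratio 1.95, 0.755 to 5.94). It shares 95.2% of 866 coding bases with Ugt2b38, only 48.7% of its windows were unique (27.8% within 1 mismatch), and with reads of at most 1 mismatch the cDNA ratio was 2.01. Ugt2b35 was 1.29-fold (1.06 to 1.58) higher in small intestine by cDNA, at 2.98 and 2.31 RPKM, and was at 15.7 and 16.7 RPKM by RNA (ratio 1.07, 0.838 to 1.36). Ugt2b36 was 2.44-fold (2.02 to 2.96) higher in small intestine by cDNA, and by RNA its ratio of 1.85 had an interval from 0.779 to 4.44. Ugt2a1, Ugt2b1, Ugt2b37 and Ugt2b38 stayed under 1 RPKM in each library.

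Sult1 genes had the highest summed level of the 7 families by cDNA, 1018 RPKM in small intestine and 1399 RPKM in colon, and were at 436 and 601 RPKM by RNA. Sult1a1, the phenol sulfotransferase (chr7:133816379-133819946, minus strand), was at 11.8 RPKM in small intestine and 786 RPKM in colon by cDNA and at 6.10 and 111 RPKM by RNA. It was higher in colon by 66.9-fold (60.3 to 74.4) and 18.3-fold (11.3 to 31.6), and was the highest member in the colon cDNA library.

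The 7 exon blocks of Sult1a1 were higher in colon by 61.5-fold to 131-fold by cDNA, and 6 blocks with at least 10 reads by 5.07-fold to 52.1-fold by RNA. Of the 17 reads in the small intestine RNA library only 47.1% lay on the strand of the gene, against 98.9% in colon. On sense reads alone the RNA ratio was 38.4, and with at most 1 mismatch it was 67.4. Counted by start points, the cDNA ratio was 6.15. Sult1a1 reads in colon filled 2104 of 2740 possible start points by cDNA, against 327 in small intestine. The 2740 are each base of the blocks on both strands, including positions where no uniquely placed read could start.

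Sult1c2 showed the same order. It was at 2.58 RPKM in small intestine and 84.4 RPKM in colon by cDNA and at 0.671 RPKM (2 reads) and 39.8 RPKM (203 reads) by RNA. The colon excess was 32.7-fold (26.4 to 41.1) and 59.4-fold (16.2 to 494). Counted by start points, it was smaller by both protocols, yet above 3-fold. All 8 exon blocks were higher in colon by cDNA, and all 7 with at least 10 reads by RNA.

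Sult1b1, which sulfates thyroid hormones and phenols, was the highest member in the small intestine cDNA library. It was at 652 RPKM in small intestine and 201 RPKM in colon by cDNA and at 139.6 and 77.8 RPKM by RNA, and the small intestine exceeded the colon by 3.24-fold (3.17 to 3.30) and 1.79-fold (1.62 to 1.99). By start points, the ratio of colon to small intestine was 0.617 by cDNA, within 3-fold. Within the Sult1 level by cDNA, Sult1b1 held 64.0% in small intestine and 14.4% in colon, whereas Sult1a1 held 1.15% and 56.2%. By RNA these shares were 32.1% and 12.9% for Sult1b1 and 1.40% and 18.5% for Sult1a1.

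Sult1d1, a sulfotransferase of catecholamines, hardly differed. It was at 352 and 327 RPKM by cDNA and at 289 and 372 RPKM by RNA, the highest level of any member in both RNA fragmented libraries. Its ratio of colon to small intestine was 0.930 (0.911 to 0.948) by cDNA and 1.29 (1.21 to 1.37) by RNA, on opposite sides of 1, and the RNA ratio was 0.982 by start points (0.860 to 1.12, which held 1). Within the Sult1 level Sult1d1 held 34.6% in small intestine and 23.4% in colon by cDNA, and 66.4% and 61.8% by RNA, the largest share in both tissues. Sult1c1 had 2 reads and Sult1e1, the estrogen sulfotransferase, had 6 reads over the 4 libraries.

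Among the other Sult genes, Sult2b1 carried 99.1% of the level in small intestine and 90.2% in colon by cDNA. This enzyme sulfates cholesterol and pregnenolone. It was at 90.7 RPKM in small intestine and 22.2 RPKM in colon by cDNA and at 88.7 and 19.8 RPKM by RNA, and was higher in small intestine by 4.08-fold (3.73 to 4.46) and 4.49-fold (3.44 to 5.91). All 7 exon blocks were higher in small intestine by both protocols, and the ratio of colon to small intestine was 0.410 by start points of the cDNA libraries.

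The Sult2a genes, which in liver sulfate bile acids and dehydroepiandrosterone, gave no read. For Sult2a1, 0 of 22484041, 24798934, 2035386 and 3478387 reads allows up to 0.131, 0.119, 1.45 and 0.847 RPKM at 3 reads, although only 54.9% of its windows were unique (24.8% within 1 mismatch). The 9 hepatocyte markers summed to 58.9 and 186 RPKM by cDNA and to 10.5 and 33.4 RPKM by RNA, with Fgb at 0 reads in all 4 libraries. By cDNA, Trf (43.6 and 71.9 RPKM), Cyp2e1 (10.8 and 45.2 RPKM) and Ttr (4.23 and 68.5 RPKM) made up nearly the whole sum, and albumin (Alb) was at 0.0435 and 0.336 RPKM. Sult4a1, a brain sulfotransferase with no settled substrate, was at 0.243, 1.13, 0.206 and 3.74 RPKM, and its colon ratio was 4.67 (2.56 to 9.23) by cDNA and 18.1 (3.02 to 739) by RNA, the latter against 1 read. Sult5a1 and Sult6b1 stayed under 1 RPKM in every library, and the 4 Sult6b1 reads by RNA lay on the opposite strand.

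**Figure D4:**
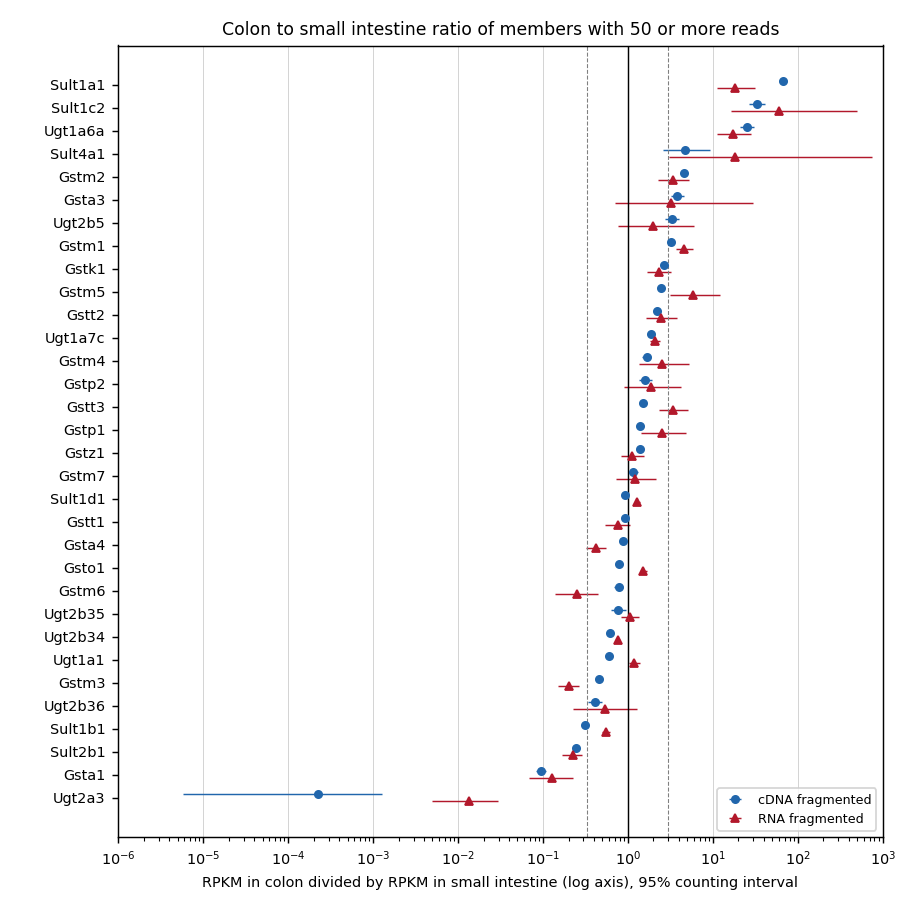
Ratio of RPKM in colon to small intestine (horizontal log axis) for the 32 members with at least 50 reads over the 4 libraries, by cDNA fragmented (circles) and RNA fragmented (triangles) protocol, with 95% counting intervals; the solid line is a ratio of 1 and dashed lines are 3-fold. Sult1a1, Sult1c2 and Ugt1a6a lie far above 3-fold in colon by both protocols, Sult4a1 lies as far by RNA (18.1), and Ugt2a3 and Gsta1 lie at the small intestine end.

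A list of 53 further genes of conjugation, all found in the table, held genes of donor supply and conjugate efflux, membrane-bound transferases, other conjugation enzymes, regulators and their targets. By cDNA 6 of 51 passed the 3-fold rule in small intestine and 6 in colon, beside 2.73% and 3.19% of all genes, and by RNA 9 and 7 of 50, beside 3.73% and 6.76%. Medians of colon over small intestine are given on the log2 scale, by cDNA and RNA. They were 1.36 and 1.11 over 4 genes listed under UDP-glucuronic acid supply, and 0.23 and -0.52 over 7 of sulfate donor supply. Over 6 genes of glutathione supply and recycling they were 0.02 and 0.37. The first list held Ugp2, Ugdh, Slc35d1 and Gusb, a glucuronidase that does not supply the donor. Its RNA median lay between the values of Ugp2 (1.10) and Gusb (1.12). For glucuronidation, Ugdh, which makes UDP-glucuronic acid, was at 66.6 and 221 RPKM by cDNA and at 65.2 and 170.1 RPKM by RNA. Slc35d1, which carries that donor into the endoplasmic reticulum, was at 12.4 and 40.8 RPKM by cDNA and at 20.9 and 24.8 RPKM by RNA. Both passed the rule in colon by cDNA and neither by RNA.

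For sulfation, Papss2, a synthase of PAPS, was at 122 RPKM in small intestine and 238 RPKM in colon by cDNA but at 439 and 115 RPKM by RNA. Bpnt1, which clears the spent donor, was at 205 and 54.9 RPKM by cDNA and at 172 and 22.3 RPKM by RNA, and passed in small intestine by both. For glutathione, Ggt1, the brush border enzyme that breaks down glutathione and its conjugates, was at 344 and 10.9 RPKM by cDNA and at 114 and 3.84 RPKM by RNA, also passing in small intestine by both. None of the 6 membrane-bound glutathione transferases and leukotriene genes passed in either direction.

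The 5 efflux pumps had a median log2 ratio of 0.46 and 0.25 and split between the tissues. Abcc2, the apical pump for glutathione and glucuronide conjugates, was at 24.9 RPKM in small intestine and 0.359 RPKM in colon by cDNA and at 82.2 and 0.960 RPKM by RNA. Abcc3, its basolateral relative, was at 4.53 and 24.9 RPKM by cDNA and at 17.2 and 79.0 RPKM by RNA. Abcc2 passed in small intestine and Abcc3 in colon by both protocols.

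Among 9 regulators, with a median log2 ratio of 0.15 and -1.01, Hnf4g and Nr1i3 passed in small intestine by both protocols. Hnf4g, a nuclear receptor of enterocytes, was at 290.2 and 8.66 RPKM by cDNA and at 159.9 and 23.2 RPKM by RNA, and Nr1i3, the xenobiotic receptor CAR, was at 26.9 and 3.49 RPKM by cDNA and at 16.1 and 0.994 RPKM by RNA. Cdx2, an intestinal homeobox factor, passed in colon by cDNA, at 13 and 47.9 RPKM, and was at 79.0 RPKM in small intestine and 39.3 RPKM in colon by RNA. Nfe2l2, which drives many Gst genes, was at 117 and 129.8 RPKM by cDNA and at 100.3 and 165 RPKM by RNA.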

How the data were processed

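RNA of small intestine and colon was sequenced in 4 libraries, 1 per tissue and protocol. The deposited files of the authors hold, per read, its position, strand and number of mismatches, beside reports of read numbers and tables of exons and junctions of mm9; none is a normalized value. The authors had matched 35 colors per read to RefSeq exons and junctions with up to 3 mismatches and kept reads with 1 placement. Total reads were 77504263, 83302412, 36419942 and 37466674 (small intestine and colon cDNA fragmented, then RNA fragmented), of which 29.0%, 29.8%, 5.59% and 9.28% were uniquely placed; these numbers equal those in the authors' reports. The labels give ribosomal RNA-depleted RNA for the RNA fragmented libraries, whereas the methods of the study describe polyadenylated RNA, and the study gives far more reads for its RNA fragmented protocol than these libraries hold, so they may not be the libraries it describes.

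Reads were counted on exon blocks held by 1 gene, with 3 bases of tolerance, and converted to RPKM (Python 3.11.15, numpy 2.4.6, pandas 2.3.3). A gene entered the 3-fold rule with at least 2 start points, meaning distinct read starts, in 1 library of the pair. Junction placements were not used, because 0.0249%, 0.0208%, 0.0130% and 0.00351% of them had no mismatch, against 34.3%, 33.8%, 38.1% and 42.7% of all reads. Counting intervals were exact Poisson and Clopper-Pearson intervals at the 95% level (scipy 1.17.1), except for the ratios of family sums. Those had 95% intervals by a normal approximation on the log scale, from the summed counting variances. Figures were drawn with matplotlib 3.10.9. Windows of 35 bases were compared with all exon blocks by bwa 0.7.19. The 3-fold rule was tested on simulated gene counts, whereas the placing of reads on blocks and genes was not.

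Members named were the 4 highest of each family by mean RPKM, those past the rule in both protocols, and those on opposite sides of 1 with both intervals clear of it, 28 in all; others mentioned by value were chosen after their values were seen. The members and all gene lists were chosen with earlier results of these data known. Alternatives tried were another penalty (0.1), median-of-ratios scaling, at most 1 mismatch, start points in place of reads, other filters, shared blocks and sense reads.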

Additional observations from a re-analysis of the deposited data

Results flagged for a closer look

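For 3 members the ratio of colon to small intestine lay on opposite sides of 1 in the cDNA and RNA fragmented protocols, with both counting intervals clear of 1. The ratio of Gsto1 was 0.793 by cDNA and 1.52 by RNA, that of Ugt1a1 was 0.592 and 1.19, and that of Sult1d1 was 0.930 and 1.29. By start points the RNA ratios were 0.945 (0.776 to 1.15), 0.971 (0.769 to 1.23) and 0.982 (0.860 to 1.12), with intervals that all held 1. With 1 library per tissue and protocol the difference between the protocols was not tested, and the protocol, RNA selection and mice of each pair cannot be told apart.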

How the results depend on the processing

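The count of members higher in small intestine by cDNA was 4 of 46 (2.73% of all genes) and fell to 1 with start points in place of reads (2.44%), where Gsta1 had a colon to small intestine ratio of 0.365, Sult1b1 of 0.617 and Sult2b1 of 0.410. The count of members higher in colon by RNA was 8 of 37 (6.76% of all genes), and it was 5 with median-of-ratios scaling (5.52%) and 5 with start points (6.70%). With a penalty of 0.1 it stayed at 8, but 16.6% of all genes then passed. The remaining counts stayed within 1.5 times. With start points the ratios of Gstm1 and Gstm2 were 1.53 and 2.02 by cDNA and 2.16 and 2.01 by RNA, under 3-fold, while Sult1a1 (6.15 and 9.85), Sult1c2 (14.8 and 36.5) and Ugt1a6a (12.6 and 6.64) stayed above it. Of all possible start points, 76.8% were used on Sult1a1, 51.4% on Gstm2 and 42.7% on Gstm1 in the colon cDNA library, and 59.5% on Sult1b1, 45.6% on Sult2b1 and 27.6% on Gsta1 in the small intestine one. Each base of the blocks on both strands was taken as possible, including positions where no uniquely placed read could start. The shares thus understate how far the usable start points were filled. Filling draws start-point ratios of well-read genes toward 1. With median-of-ratios scaling, which shifted the log2 ratio by 0.27 by cDNA and 0.13 by RNA, Gstm1 was at 2.63 by cDNA. With the shared Ugt1 exons given to each gene, Ugt1a1 had ratios of 1.52 and 2.10 and Ugt1a6a of 1.98 and 2.87, because those exons hold the reads of all Ugt1 genes. The Ugt2a3 ratio was 0.0135 by RNA and 0.00303 with at most 1 mismatch. Of 398 ratios of named genes under alternatives 66 moved beyond their interval, and of 42 family ratios 24 did. No paired analysis was possible because, within a protocol, each tissue had 1 library and the labels tie no library to a mouse; a fit of tissue over both protocols, with protocol as a block, was not run. Leaving out a library leaves no comparison within its protocol. Depth limits the RNA fragmented values, where members with few reads have wide intervals.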

Other observations

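Methyltransferases and acetyltransferases stood beside the conjugating families. Inmt, an indolethylamine methyltransferase, was the gene of this list that passed the 3-fold rule in colon by both protocols, at 0.304 RPKM in small intestine and 4.77 RPKM in colon by cDNA and at 0.480 and 4.50 RPKM by RNA. Nat2, an arylamine acetyltransferase, was at 18.4 and 19.7 RPKM by cDNA and at 19.5 and 24.6 RPKM by RNA. Ugt3a1 and Ugt3a2 had no read in any library.

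Cyp1a1, an oxidase induced through the Ahr receptor, passed in small intestine by both protocols, at 11.8 and 0.447 RPKM by cDNA. The 5 listed targets of Nfe2l2 or Ahr, Cyp1a1 among them, went both ways. The Nfe2l2 target Nqo1 was at 40.8 and 75.9 RPKM by cDNA and passed in colon by RNA. Hmox1 was 2.96-fold higher in colon by cDNA and passed there by RNA, against 1 read in small intestine. Srxn1 was instead higher in small intestine, by 1.68-fold by cDNA and 1.95-fold by RNA. So was Txnrd1, by 1.28-fold and 1.14-fold.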
